A study of Rattus norvegicus with 6 samples.

Results

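The lysyl oxidase family is made up of Lox and its relatives Loxl1, Loxl2, Loxl3 and Loxl4, which were taken from the count table by gene symbol. All 5 were present among its 14475 genes. They were compared between VSM cells grown from the SFA of young male Fischer 344 rats, aged 4 months, and of old male rats of the same strain, aged 24 months. The SFA is the small artery that feeds the soleus muscle. Each age group held 3 rats and 3 RNA libraries, and all cultures were grown in 1 kind of serum-containing medium. The cells had therefore left the vessel wall and its elastic layers before RNA was taken.

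Lysyl oxidases are copper-dependent amine oxidases that are secreted into the matrix, where they convert lysine and hydroxylysine side chains of collagen and elastin into reactive aldehydes. These aldehydes condense into the covalent crosslinks that give collagen fibrils their strength and elastic fibers their recoil, and in arteries the enzymes set part of the stiffness of the wall. Lox and Loxl1 carry a propeptide that has to be removed, whereas Loxl2, Loxl3 and Loxl4 carry scavenger receptor domains in its place.

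Library totals ranged from 44235674 to 59700887 counts, so the members, with 857 to 67677 counts per library, were far above the low-count range. CPM here are counts scaled to the library size after TMM normalization, and they serve as levels. Of the 6 smooth muscle markers Acta2, Myh11, Tagln, Cnn1, Smtn and Des, 6 were present, with summed levels of 10945 to 20468 CPM in the young libraries and 3370 to 5421 CPM in the old libraries. Of the 6 fibroblast markers Pdgfra, Dcn, Lum, Pi16, Dpt and Col14a1, 6 were present, with summed levels of 243 to 664 CPM in young and 1090 to 1994 CPM in old. Taken singly, the age groups overlapped for Des, Lum, Pi16 and Dpt and not for the other smooth muscle and fibroblast markers. The part of this shift in marker sums in the results below was not tested. Fewer cells of a type and less RNA per cell cannot be told apart in these bulk samples. The endothelial marker Cdh5 and the macrophage markers Ptprc and Adgre1 were not among the genes listed, and the listed markers of endothelial cells summed to at most 18.2 CPM and those of macrophages to at most 16.8 CPM. Of the skeletal muscle markers Acta1 alone was listed, without Myod1, Myog, Myf5 or Ckm, at 72.1 to 256 CPM in young and 5.97 to 17.6 CPM in old.

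No lysyl oxidase gene differed detectably between young and old VSM cells. By the quasi-likelihood test of edgeR, 0 of the 5 members reached an adjusted p under 0.05 together with a 2-fold change in either direction (1 on the log2 scale), where 0.00691% of all genes did. The DESeq2 Wald test called 0 of 5 as well, against 5.56% of all genes, and limma-voom called 0 of 5 and 0 of all genes. The count at an unadjusted p under 0.05 was also 0 of 5, against 22.6% of all genes in the same edgeR test. Young and old libraries overlapped for all 5 members, and 29.2% of all genes had groups that did not overlap. With 5 genes, a count of 0 cannot be told apart from these shares. Lox, Loxl1 and Loxl4 had fold changes above 0 and Loxl2 and Loxl3 below 0 on the log2 scale, with a median of 0.058 for the family beside 0.018 for all genes.

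**Figure D1:**
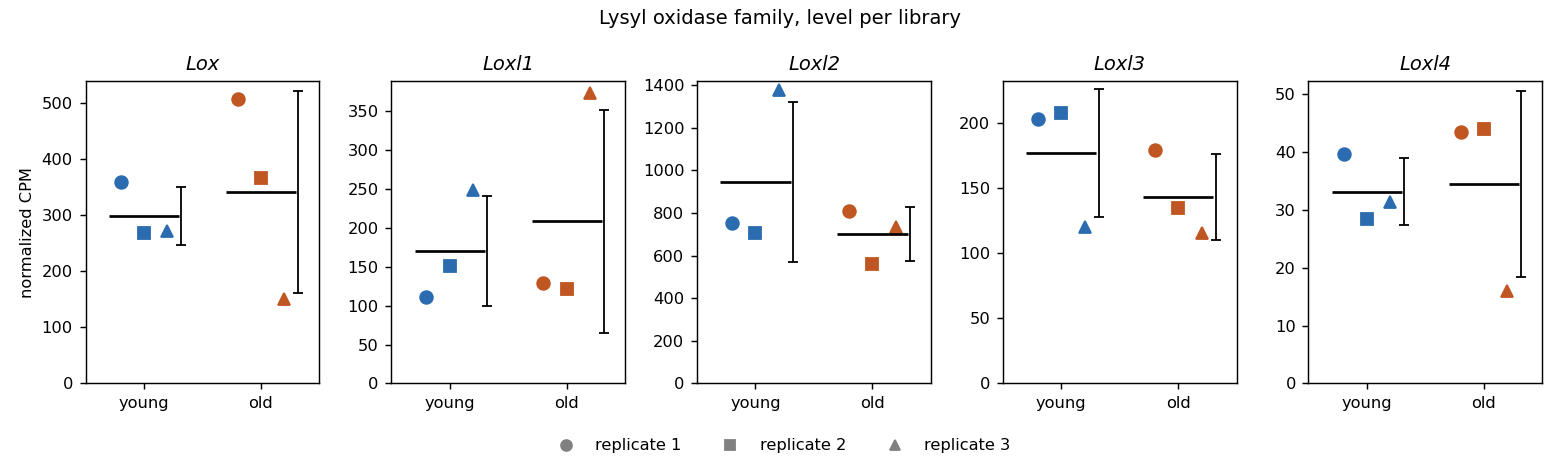
Normalized CPM of each lysyl oxidase gene (vertical axes, from 0, one scale per gene) in young and old libraries. Points are single libraries with a shape for each replicate number, horizontal lines are group means and bars are SD (n = 3). The 2 groups overlap in every panel, and old replicate 3 is the lowest library for Lox and Loxl4 and the highest for Loxl1.

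Lox (ENSRNOG00000014426), the founding member and the main crosslinking enzyme of collagen and elastin in the arterial wall, was measured at 358, 268 and 271 CPM in young replicates 1, 2 and 3. In old replicates 1, 2 and 3 it was measured at 506, 365 and 150 CPM. The old libraries thus lay on both sides of the young ones, with the highest and the lowest values of all 6 libraries among them. Means were 299 ± 51.5 CPM in young and 340 ± 179 CPM in old (SD, n = 3 each). The log2 fold change from young to old, with SE for its standard error, was 0.19 (SE 0.41, 95% interval -0.81 to 1.19, edgeR adjusted p = 0.805). The coefficient of variation was 17.2% among young and 52.7% among old libraries.

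Loxl1 (ENSRNOG00000008680), which acts with fibulin-5 (Fbln5) in the upkeep of elastic fibers, was at 111, 151 and 248 CPM in the young libraries. It was at 129, 122 and 373 CPM in the old libraries. In both age groups the library numbered 3 was the highest, and the other 4 libraries lay between 111 and 151 CPM. The log2 fold change was 0.29 (SE 0.51, 95% interval -0.95 to 1.53, edgeR adjusted p = 0.756), with means of 170 ± 70.5 and 208 ± 143 CPM (SD, n = 3 each). Without old replicate 3 the log2 fold change of Loxl1 turned to -0.44 (edgeR adjusted p = 0.540).

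Loxl2 (ENSRNOG00000016758), which crosslinks collagen IV of basement membranes among other substrates, was at 753, 705 and 1378 CPM in the young libraries and 810, 560 and 732 CPM in the old libraries. Young replicate 3 stood above the other 5 libraries, which overlapped. Its log2 fold change of -0.43 had the lowest adjusted p of the family (SE 0.30, 95% interval -1.15 to 0.28, edgeR adjusted p = 0.410). Without young replicate 3 the log2 fold change was -0.058. Means were 945 ± 375 CPM in young and 700.4 ± 128 CPM in old (SD, n = 3 each).

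Loxl3 (ENSRNOG00000061373), known for its role in cartilage, palate and spine development, was at 203, 208 and 120 CPM in young and 179, 135 and 116 CPM in old libraries. Young replicate 3 fell among the old libraries. The log2 fold change was -0.31 (SE 0.26, 95% interval -0.93 to 0.32, edgeR adjusted p = 0.498), and it stayed below 0 whichever library was removed, between -0.52 and -0.17. In the RefSeq annotation of the assembly GRCr8, Loxl3 overlaps Htra2 by 43 bases and Lox overlaps the pseudogene Rps3a-ps12 by 271 bases. The strand setting of the counting is not given in the sources used here.

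Loxl4 (ENSRNOG00000015727), a member with scavenger receptor domains whose matrix role is less well defined, was at 39.7, 28.4 and 31.4 CPM in young and 43.6, 44.1 and 16.0 CPM in old libraries. As for Lox, the old libraries held both ends of the range. The log2 fold change was 0.058 (SE 0.38, 95% interval -0.86 to 0.98, edgeR adjusted p = 0.937), and it changed sign with young replicate 2, old replicate 1 or old replicate 2 left out.

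The intervals limit how large an age difference these 6 libraries could have hidden. For Loxl3 and Loxl4 the 95% interval stayed within a log2 fold change of 1 in either direction. For Lox and Loxl1 it reached past 1 upward and for Loxl2 past -1 downward, so a 2-fold difference in that direction lies within the error. The biological coefficient of variation from the edgeR fit was 36.5% for Lox, 43.9% for Loxl1, 27.3% for Loxl2, 24.6% for Loxl3 and 33.9% for Loxl4, each above the median of 20.8% over all genes. Among all genes, 87.3% had a lower value than Loxl1 and 59.6% a lower value than Loxl3. Without old replicate 1, where the same test called 732 of all genes, the number of members called was still 0, and in that fit the log2 fold change of Lox was -0.21.

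**Figure D2:**
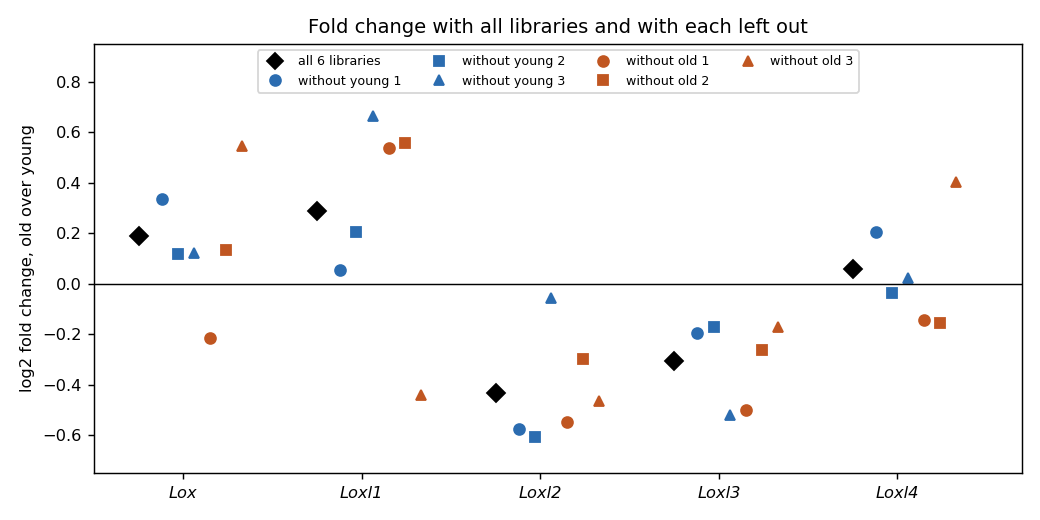
Log2 fold change of each member, old over young (vertical axis), for all 6 libraries (diamonds) and after removal of single libraries (colored points, shape for replicate number). Lox, Loxl1 and Loxl4 lie on both sides of 0 depending on the library left out, from -0.21 to 0.54, -0.44 to 0.67 and -0.16 to 0.40, while Loxl2 and Loxl3 stay below 0.

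Some members varied together between libraries. Lox and Loxl4 were high and low in the same libraries. The log2 ratio of Lox to Loxl4 lay between 3.05 and 3.54 in all 6 libraries, while the level of Lox itself varied 3.37-fold among the old libraries alone. For Loxl1 the order was closer to the reverse. Its ratio to Loxl4 was 2.81, 5.30 and 7.91 in young replicates 1, 2 and 3 and 2.97, 2.76 and 23.3 in old replicates 1, 2 and 3.

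For log2 CPM of Lox and Loxl4, Pearson's r was 0.96 (exact permutation p = 0.00694) and Spearman's rho 0.94 (exact permutation p = 0.0167). For Lox and Loxl1, r was -0.87 (exact permutation p = 0.0222) and rho -0.71 (exact permutation p = 0.136). For Loxl1 and Loxl4, r was -0.89 (exact permutation p = 0.0236) and rho -0.77 (exact permutation p = 0.103). With Benjamini-Hochberg adjustment over the 10 pairs of members, none passed 0.05. The exact permutation p of r became 0.0694 for Lox and Loxl4 and 0.0787 for both pairs with Loxl1, and that of rho 0.167 and 0.454. After removal of the pair of libraries farthest from the median of the first gene, r was 0.97 for Lox and Loxl4, -0.80 for Lox and Loxl1 and -0.76 for Loxl1 and Loxl4 over the other 4 libraries. For Loxl2, r with the other members lay between -0.29 and 0.41. The two-sided permutation tests treat the 6 libraries as exchangeable over both ages.

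**Figure D3:**
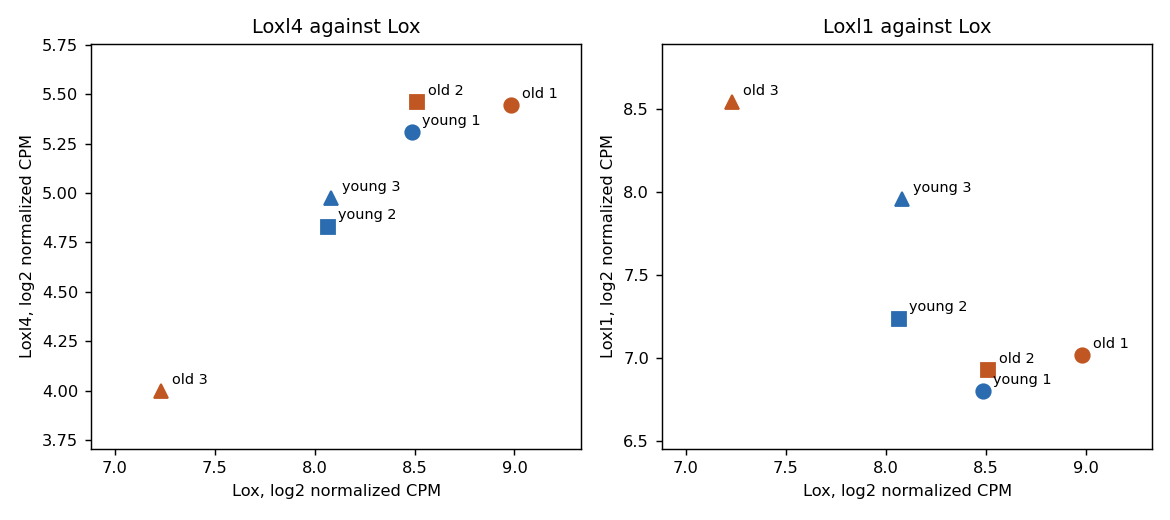
Log2 normalized CPM of Loxl4 (left) and Loxl1 (right) against Lox, with 1 labelled point per library, colored by age group and shaped by replicate number. Loxl4 rises with Lox (r = 0.96) and Loxl1 falls with it (r = -0.87), and old replicate 3 is the most distant point in both panels.

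The 250 bases before the start site are shown for Loxl1 and Loxl4, the pair with the most negative r, although that r did not pass adjustment. Of the 5 members, 3 matched an entry of the RefSeq promoter table (build GRCr8), namely Loxl1, Loxl3 and Loxl4, while Lox and Loxl2 did not. Sequences run 5′ to 3′ in the sense of the gene, and capitals mark matches on either strand to the GC box (GGGCGG) or the SMAD element (CAGAC), whose letters do not overlap here. The window of Loxl1 is chr8:67612225-67612474 on the minus strand and that of Loxl4 is chr1:251365578-251365827 on the minus strand.
Loxl1: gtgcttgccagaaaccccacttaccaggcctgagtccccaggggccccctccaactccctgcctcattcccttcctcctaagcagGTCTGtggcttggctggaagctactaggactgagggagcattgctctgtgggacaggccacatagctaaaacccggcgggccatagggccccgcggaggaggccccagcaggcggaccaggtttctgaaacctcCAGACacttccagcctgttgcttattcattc
Loxl4: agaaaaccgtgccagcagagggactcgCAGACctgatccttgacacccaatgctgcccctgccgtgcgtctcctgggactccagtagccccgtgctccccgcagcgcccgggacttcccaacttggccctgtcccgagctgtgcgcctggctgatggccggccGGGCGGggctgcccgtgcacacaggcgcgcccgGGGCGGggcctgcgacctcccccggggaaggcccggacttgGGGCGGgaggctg

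The window of Loxl4 held 3 GC boxes, the letters that Sp family factors bind, which start at -87, -54 and -13 counted from the start site. The windows of Loxl1 and Loxl3 held 0, and 30.5% of all 33469 promoter windows of this length held at least 1. The SMAD element, a short sequence bound by the effectors of TGF-beta signaling, occurred 2 times in the window of Loxl1, 1 time in that of Loxl4 and 0 times in that of Loxl3, while 42.9% of all windows held it. The TATA box (TATAAA, 12.9% of windows), the hypoxia response core (ACGTG, 16.6%), the AP-1 site (TGANTCA, 6.34%) and the CArG box of smooth muscle genes (1.5%) had no match in any of the 3 windows. GC content was 60.4% for Loxl1, 62.4% for Loxl3 and 72.8% for Loxl4, beside a median of 51.2% over all windows. These matches describe letters only.

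The composition of the family was then followed within each library, which removes any scaling between libraries. Since counts were not divided by transcript length, the shares do not rank the members against each other. A share also moves when another member moves. Lox was at 268 and 271 CPM in young replicates 2 and 3, yet its share fell there as Loxl2 rose from 705 to 1378 CPM. The summed level of the 5 members was 1466, 1359 and 2048 CPM in the young libraries and 1668, 1225 and 1386 CPM in the old libraries. The share of Lox in this sum was 24.4%, 19.7% and 13.2% in young and 30.4%, 29.8% and 10.8% in old libraries. The share of Loxl1 was 7.60%, 11.1% and 12.1% in young and 7.75%, 9.93% and 26.9% in old libraries. Old replicate 3 thus stood above the other 5 libraries, which lay between 7.60% and 12.1%. Loxl2 took 45.7% to 52.8% of the sum in the old libraries and 51.4% to 67.3% in the young libraries. The groups overlapped for the share of each member and for each of the 10 ratios between members.

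The partners of these enzymes did not all behave alike. Substrates, scaffolds, activating proteases, copper carriers, lysyl hydroxylases and other genes of matrix crosslinking were read from 8 lists of 53 genes in all, of which 48 were in the table. In edgeR 0 of the 48 passed both thresholds and 12 had an unadjusted p under 0.05, 6 higher (background 11.2% of all genes) and 6 lower in old (background 11.5%). DESeq2 called 9 of the 48, 3 higher in old (background 2.25%) and 6 lower (background 3.31%). The 3 higher genes were Col3a1, Dcn and Hif1a, and the lower genes included Ltbp4, Tll1, Tgm2, Tgfb2 and Tgfb3. Without young replicate 2 the DESeq2 count was 5. Col3a1, Ltbp4, Tgm2, Tgfb2 and Tgfb3 were called with each of the 6 libraries removed in turn, while Dcn, Hif1a and Tll1 each lost the call in at least 3 of those fits, which were added after the data were seen. Col1a1, Col1a2, Pcolce and Plod1 had DESeq2 adjusted p of 0.000277, 0.0188, 0.0149 and 0.00301 and were not called for the size of the change alone. On counts simulated with the spread per gene that edgeR estimated, DESeq2 called more unchanged genes than edgeR did and recovered more of the changed ones. This does not show which of the calls here are false. The median log2 fold change of the 48 was 0.17, beside 0.018 for all genes.

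Among the 8 collagen chains that lysyl oxidases act on, 6 had a log2 fold change above 0, as had 7534 of all 14475 genes. The median of the 8 chains was 0.38, beside 0.018 for all genes. Col1a1, the major chain of collagen I, was at 17637, 14928 and 21235 CPM in young and 29272, 30522 and 32726 CPM in old libraries. The old libraries lay above the young ones, and the log2 change fitted was 0.78 (SE 0.27, edgeR adjusted p = 0.173). Col1a2, the second chain of collagen I, had a log2 fold change of 0.56 (edgeR adjusted p = 0.245), also with groups that did not overlap. Col3a1, the chain of collagen III, had 1.31 (SE 0.33, edgeR adjusted p = 0.111). Col4a1, a basement membrane chain, had -0.46 (edgeR adjusted p = 0.324), and its level of 3635 CPM in young replicate 3 stood above the 1826 to 2281 CPM of the other 5 libraries, as the level of Loxl2 did. Pxdn, the peroxidase that forms the sulfilimine crosslinks of collagen IV, was at 692 CPM in young replicate 3 and at 302 to 346 CPM in the other 5 libraries. These peaks rest on 1 library and were not particular to collagen IV genes. Fbln5 (243 CPM) and Tgfb2 (521 CPM) were also highest in young replicate 3.

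**Figure D4:**
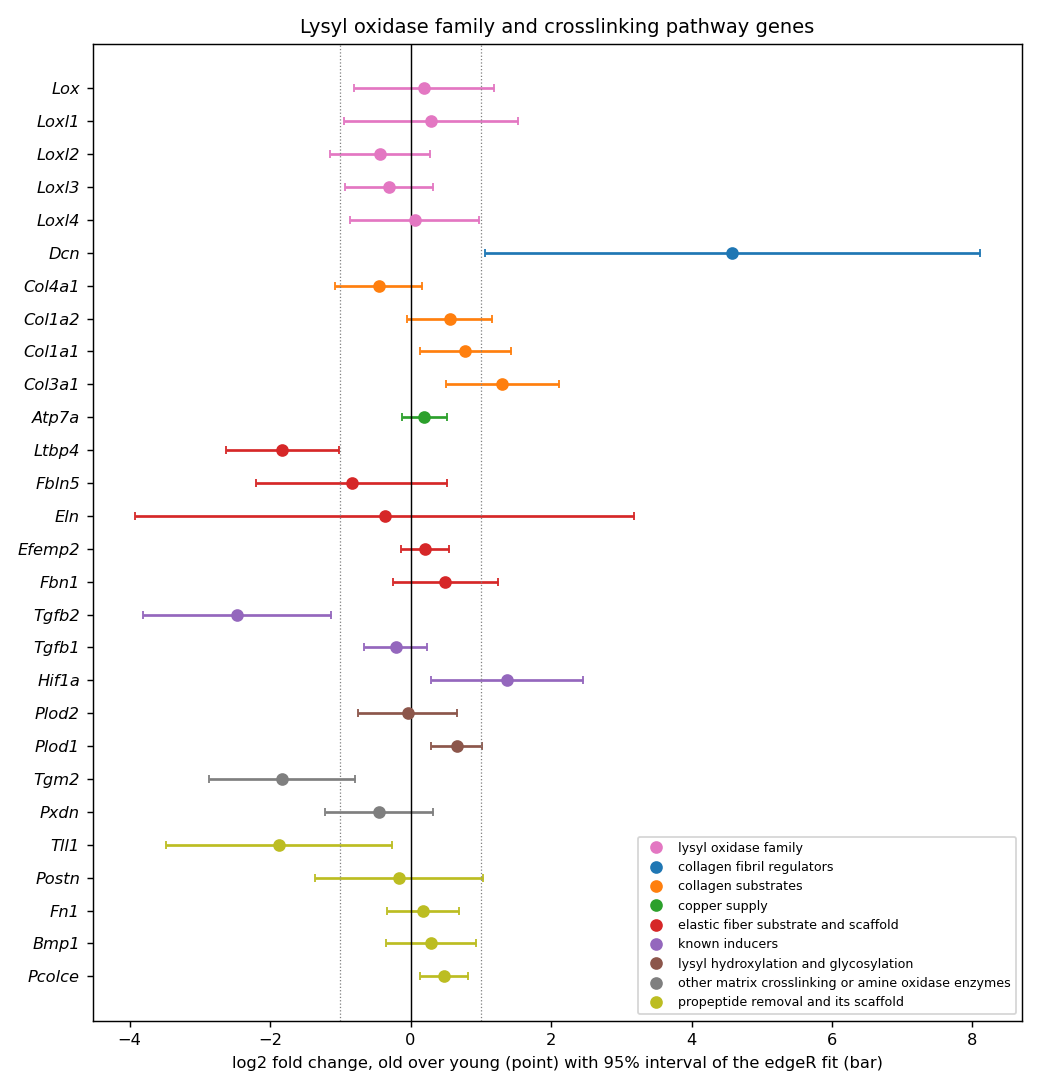
Log2 fold change, old over young (points, horizontal axis), with the 95% interval of the edgeR fit (bars), for the 5 members and 23 pathway genes colored by list. Dotted lines mark a log2 fold change of -1 and 1. The 5 members lie between -0.43 and 0.29 with intervals across 0, while Tgfb2, Tll1, Tgm2 and Ltbp4 lie below -1 and Col3a1, Hif1a and Dcn above 1. Tgfb2, Tll1, Ltbp4, Hif1a and Dcn are shown as extremes of their lists among genes with an unadjusted edgeR p under 0.05. Their distance from the members, which were not chosen by value, follows from that choice.

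Of the 9 elastic fiber genes, 5 were above 0, as were 7534 of all 14475 genes. Eln, which encodes tropoelastin, was at 1.02, 5.78 and 10.5 CPM in young and 0.0804, 1.04 and 12.3 CPM in old libraries. Its raw counts ran from 4 in old replicate 1 to 659 in old replicate 3, and its fold change changed sign with the library left out. Efemp2 (fibulin-4), which brings Lox to tropoelastin, had a log2 fold change of 0.20 (edgeR adjusted p = 0.416). Fbln5 had -0.84 (edgeR adjusted p = 0.400), and without young replicate 3, where it reached 243 CPM, 0.091. Fbn1, the fibrillin of microfibrils, had 0.50 (edgeR adjusted p = 0.369). Ltbp4, which supports elastin assembly with fibulin-5, was at 15.5, 18.0 and 10.2 CPM in young and 3.12, 5.94 and 3.27 CPM in old libraries, with groups that did not overlap. Its log2 fold change was -1.82 (SE 0.34, edgeR adjusted p = 0.0658), and DESeq2 called it.

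Of the 7 genes of propeptide removal and its scaffold, Bmp1, the protease that activates Lox, had a log2 fold change of 0.29 (edgeR adjusted p = 0.531). Its relative Tll1 was at 175, 191 and 303 CPM in young and 39.6, 123 and 19.4 CPM in old libraries, and the log2 change fitted was -1.87 (SE 0.67, edgeR adjusted p = 0.180). DESeq2 called Tll1 with all libraries, but not without young replicate 1, 2 or 3 or old replicate 1 or 3. Pcolce, the enhancer of procollagen cleavage, was at 769 to 828 CPM in young and 951 to 1222 CPM in old, groups that did not overlap, and the log2 change fitted was 0.47 (edgeR adjusted p = 0.142). Fn1 and Postn, matrix proteins that hold Bmp1 near its substrate, had 0.18 and -0.17 (edgeR adjusted p = 0.627 and 0.861).

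Copper reaches these enzymes in the secretory pathway. Of the 5 genes of copper supply, Slc31a1, Slc31a2, Atox1, Atp7a and Atp7b, 0 had an unadjusted p under 0.05, against 22.6% of all genes, and 5 genes are too few to tell these shares apart. Atp7a, the pump that loads copper onto Lox in the secretory pathway, was at 38.0 to 47.5 CPM in young and 43.9 to 56.0 CPM in old, and the log2 change fitted was 0.20 (95% interval -0.12 to 0.51, edgeR adjusted p = 0.396). Among the 5 genes of lysyl hydroxylation and glycosylation, Plod1 was at 204 to 250 CPM in young and 304 to 419 CPM in old, and the log2 change fitted was 0.66 (SE 0.15, edgeR adjusted p = 0.0974). Plod2, the hydroxylase of collagen telopeptides, had -0.040 (edgeR adjusted p = 0.944).

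Tgm2, a transglutaminase that crosslinks matrix proteins by another reaction, was at 46.3, 39.0 and 20.7 CPM in young and 12.5, 12.2 and 5.11 CPM in old libraries. All old libraries lay below the young ones, and the log2 change fitted was -1.83 (SE 0.43, edgeR adjusted p = 0.102). Among the 6 genes listed as inducers of the family or as their targets, Tgfb1 had a log2 fold change of -0.21 (edgeR adjusted p = 0.512). Tgfb2 was at 109, 286 and 521 CPM in young and 39.3, 59.7 and 66.0 CPM in old libraries, and the log2 change fitted was -2.47 (SE 0.56, edgeR adjusted p = 0.0948). Hif1a, the oxygen-regulated factor that can induce Lox, had 1.38 (SE 0.45, edgeR adjusted p = 0.160), and its groups overlapped. Tgfb3, chosen after its values were seen, had -2.37 (edgeR adjusted p = 0.0982). Of the 5 collagen fibril regulators, 5 were above 0, as were 7534 of all 14475 genes, and 1 had an unadjusted p under 0.05. This was Dcn, the proteoglycan decorin, which had 4.58 (SE 1.46, edgeR adjusted p = 0.156). Its levels were 19.9, 1.16 and 2.28 CPM in young and 26.0, 411 and 119 CPM in old libraries, so replicates numbered 1 were close. Dcn and Lum, another of the 5, also count among the fibroblast markers given above, whose part in these values was not tested.

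The collagen level was set against the family level within each library, a ratio chosen after the values were seen. Its 3 chains are those of the 8 listed whose groups do not overlap on their own. That choice favored the separation below, which is a description and not a test. The summed CPM of Col1a1, Col1a2 and Col3a1 was 31.9, 28.0 and 25.0 times the summed CPM of the 5 lysyl oxidases in the young libraries. It was 45.5, 63.1 and 71.8 times that sum in the old libraries. Means were 28.3 ± 3.44 in young and 60.1 ± 13.4 in old (SD, n = 3 each), 2.13-fold higher in old and between 1.92-fold and 2.38-fold when single libraries were left out. For the other 5 listed chains, the ratio to the family was 1.29-fold for Col5a1, 1.17-fold for Col5a2, 1.72-fold for Col11a1, 0.852-fold for Col4a1 and 0.963-fold for Col4a2 in old relative to young, and the groups overlapped for each of these except Col5a1. With all 8 chains summed the ratio was 1.92-fold higher in old, a sum made up mostly of the same 3 chains. An exact permutation test of 3 against 3 libraries cannot give a two-sided p below 0.10. Against single members, the ratio had separate groups for Loxl2 and Loxl4 and overlapping groups for Lox, Loxl1 and Loxl3.

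**Figure D5:**
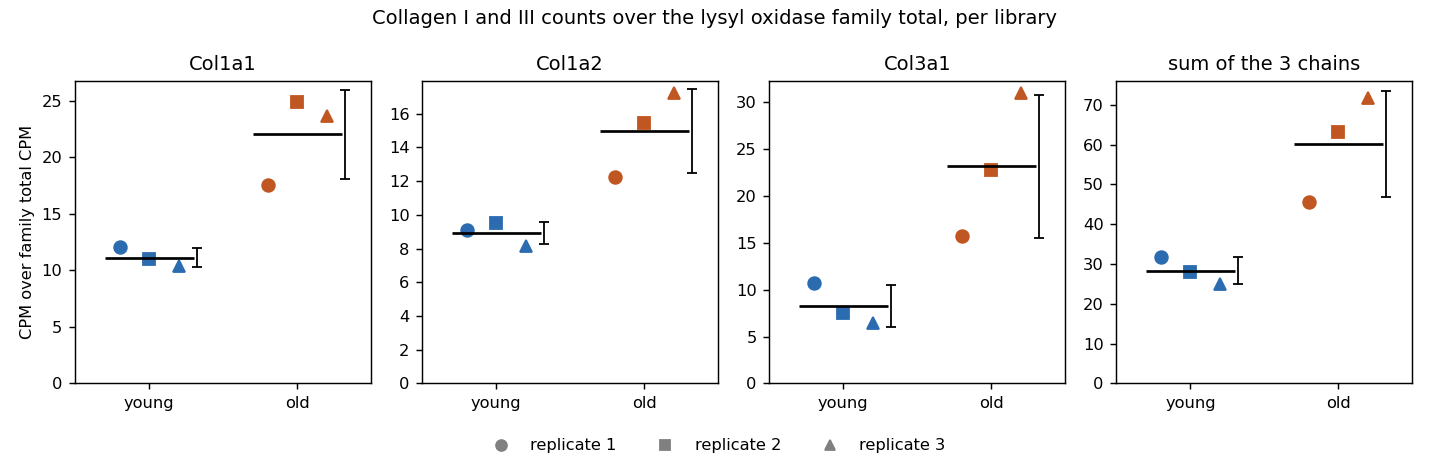
CPM of Col1a1, Col1a2, Col3a1 and their sum divided by the summed CPM of the 5 lysyl oxidase genes in the same library (vertical axes, from 0). Points are libraries, lines are means and bars are SD (n = 3), and in each panel the old libraries (for the sum, 45.5 to 71.8) lie above the young libraries (25.0 to 31.9).

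For each member, the 3 genes with the most similar pattern were taken by Pearson's r of log2 CPM over the 6 libraries, among 8568 genes with a symbol and a mean of at least 10 CPM. With so many genes and 6 libraries, a high r is easily reached, and these values are a description. Pearson's r also leaves out how large the variation is. For Lox these genes were Gapdh and Eno1, glycolytic enzymes, each with r = 0.99, and Rpl7l1 with r = 0.99. Rpl7l1 ran only from 95.4 to 108 CPM over the libraries, while Lox ran from 150 to 506 CPM. Gapdh was at 1411, 1225 and 1156 CPM in young and 1932, 1395 and 712 CPM in old libraries, with old replicate 1 the highest and old replicate 3 the lowest, as for Lox. For Loxl1 they were Msantd3, Trim2 and Lrba (r from 0.987 to 0.990). For Loxl2 they were Cers4, Zfyve16 and the laminin-binding integrin subunit Itga6 (r from 0.991 to 0.993), of which Itga6 was at 93.6 CPM in young replicate 3 and at 15.7 to 37.8 CPM in the other 5 libraries. For Loxl3 they were Larp6, which binds collagen mRNA, Tnfaip2 and Ssu72 (r from 0.987 to 0.994). For Loxl4 they were Mideas, Ssr2 and Pyroxd1 (r from 0.991 to 0.996).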

How the data were processed

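Polyadenylated RNA of cultured VSM cells was sequenced as 1 stranded library per culture. The authors deposited raw counts per gene, without normalization. They trimmed reads with Cutadapt 3.5, aligned them to Rnor 6.0 with STAR 2.7.10b and counted them with featureCounts (Subread 2.0.8). The methods name a RefSeq annotation while the table carries Ensembl identifiers, so the gene models behind each count are uncertain. Strand and multi-mapping choices, which matter for paralogs, were not stated. The authors removed low genes, and each listed gene reached 10 counts in 3 or more libraries. Totals exceed the reads per sample in the labels, so halved counts were an alternative. The members and lists were chosen with earlier results of these data known.

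The test was edgeR 4.0.16 under R 4.3.3 (quasi-likelihood, TMM, Benjamini-Hochberg adjustment over 14475 genes, young as reference, no covariates). Calls required adjusted p under 0.05 plus a log2 change of 1 or more in size. DESeq2 1.42.0 (filtering at 0.05) and limma 3.58.1 (voom) were alternatives. The fits across all genes were tested on data simulated with the spread per gene that edgeR estimated. There DESeq2 called more unchanged genes than edgeR and recovered more of the changed ones. Standard errors were the fold change divided by the root of F. Replicates differed beyond sampling noise (chi-square per gene at least 67.1). The methods name 3 rats per group. Named genes were the members, a preset list of partners, the extremes of each list and the most similar genes; some listed genes are not reported here.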

Additional observations from a re-analysis of the deposited data

How the results depend on the processing

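The number of members called was 0 under every alternative test, normalization, filter, threshold and left-out library, and 0 by DESeq2 with each library left out. By limma-voom, and in edgeR with another normalization, halved counts or the replicate block, 0 or 1 of all genes were called. With a library left out edgeR called 0 to 5, apart from 732 without old replicate 1. A filter of at least 1 CPM in 3 libraries gave 65, and DESeq2 with a library left out 551 to 1377. A count of 0 members carries little weight where so few genes were called at all. Of 70 values of the members' log2 fold changes under 14 alternatives, 63 kept their direction and 7 changed sign, with no adjusted p below 0.259. The reversed values were -0.21 for Lox without old replicate 1, -0.44 for Loxl1 without old replicate 3, and for Loxl4 -0.067 under limma-voom, -0.061 with the replicate block, and -0.038, -0.14 and -0.16 without young replicate 2, old replicate 1 and old replicate 2. With each library left out, the log2 fold change ranged from -0.21 to 0.54 for Lox, from -0.44 to 0.67 for Loxl1 and from -0.16 to 0.40 for Loxl4. Among partners (ranges with a library left out: Eln -3.36 to 0.39, Fbln5 -1.23 to 0.091, Pxdn -0.66 to 0.030, Postn -0.65 to 0.42, Plod2 -0.29 to 0.20), Eln reversed to 0.39, 0.21 and 0.09 without young replicate 3, old replicate 1 and old replicate 2, Fbln5 to 0.091, Pxdn to 0.030 and Postn to 0.42 without young replicate 3, Postn to 0.08 without old replicate 2, and Plod2 to 0.06, 0.03 and 0.20 without young replicate 1, young replicate 2 and old replicate 3. Of 322 such values for the named partners, 305 kept direction and call, 10 changed sign and 7 gained a call. The cause was not tested. The count of pathway genes called, 0 in edgeR, was 9 with DESeq2, 3 at an adjusted p under 0.1, and 0 to 1 with a library left out (1 without old replicate 1). By DESeq2 it ranged from 5 to 11 with a library left out, which was added after seeing the data.

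Whether the replicate numbers pair the cultures is not stated, and correlations between the libraries do not decide it. Deviations from the group mean correlated at 0.063, 0.32 and 0.31 for same-numbered libraries 1, 2 and 3. Young replicates 2 and 3 each correlated best with the old library of the same number, but young replicate 1 did so with old replicate 2 (0.35). Pairs of unlike number ranged from -0.46 to 0.35. With the replicate block the log2 fold changes were 0.039 for Lox, 0.16 for Loxl1, -0.38 for Loxl2, -0.29 for Loxl3 and -0.061 for Loxl4, and it left the calls at 0 members and 0 pathway genes. With 3 libraries per group, the spread between cultures rather than counting error limits these comparisons.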

Other observations

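The genes closest in pattern to Lox included 2 enzymes of glycolysis, so 18 genes of glucose uptake, glycolysis and lactate export were read after that was seen. Gapdh and Eno1 prompted the list and are left out of its counts. The other 16 had a positive Pearson's r with Lox over the 6 libraries, with a median of 0.86, and 10 of them exceeded 0.8, as did 4.28% of the 8568 genes compared, whose median was 0.034. Genes of a pathway vary together, so they are not independent, and this is a description. The points share library depth and normalization, and the list was written knowing the values of Gapdh and Eno1. Tpi1 (triose phosphate isomerase) was at 454, 330 and 226 CPM in young and 682, 469 and 136 CPM in old libraries. Slc16a3, the lactate exporter, was at 59.7, 22.9 and 10.4 CPM in young and 91.3, 91.0 and 5.41 CPM in old libraries. Old replicate 3 was the lowest library for 8 of the 16, and the share of all genes lowest there is not given here. Pfkp, Eno2 and Pfkm followed Lox least, with r of 0.33, 0.33 and 0.40. In edgeR 0 of the 16 passed the test of age, as did 0.00691% of all genes. In the same test 3 (Aldoc, Eno2 and Gpi) had an unadjusted p under 0.05, against 22.6% of all genes. The lowest edgeR adjusted p was 0.125 for Aldoc (log2 fold change 2.02). All 16 had a log2 fold change above 0, as had 7534 of all 14475 genes. Culture density, medium and oxygen were not analysed here.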
